A study of Sus scrofa with 15 samples.

Results

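The genes described here encode the machinery that copies chromosomal DNA and supplies its nucleotides. A list of 49 symbols in 7 groups by role was matched to the pig gene table, and 48 of its 22516 genes carried one of these symbols. The one symbol that was not analysed here was *RRM2*, the small subunit of ribonucleotide reductase. All 48 genes passed the filter on low counts and were tested among 13220 genes. The members lie on 18 chromosomes of Sscrofa11.1, with 9 of the 47 that have a RefSeq position on chromosome 6.

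Replication starts where the origin recognition complex (ORC) binds DNA and, with CDC6 and CDT1, loads the MCM2-7 helicase in a step called licensing. CDC45 and GINS turn the loaded ring into an active helicase, and DNA polymerases alpha, delta and epsilon copy the strands behind it. The ring-shaped clamp PCNA, opened and closed by the RFC loader, keeps polymerases on the template. An oocyte does not replicate its DNA between the 2 meiotic divisions, and an early embryo relies on the mRNA and protein that the oocyte stored.

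Pig oocytes were pooled at 15 per library, with 5 libraries in each of 3 groups. GV (germinal vesicle) oocytes came directly from fresh ovarian follicles without culture and had no polar body. All oocytes came from sow ovaries collected at an abattoir. MII oocytes had been matured *in vitro* inside their cumulus cells for 44 h and showed a first polar body. The ‘damaged’ oocytes had the same culture but no polar body, and MII and ‘damaged’ together are called MIX (n = 10).

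Cumulus cells were removed from all oocytes, and the cDNA was made from polyA RNA. In such pools, fewer oocytes with a transcript and less RNA per oocyte cannot be told apart, nor can RNA amount and the length of the polyA tail. Per the study's methods the 5 libraries of a group are independent collections, and each collection gave oocytes of every group. MIX thus joins MII and ‘damaged’ libraries of the same collections, and the main fits take all libraries as independent. The p-values of these fits measure the spread between libraries and do not account for shared collections. In the gene table, 7 of 15 columns carried the total of a library with another name, so the group of every library, and which GV library was left out, rest on the names of the transcript files.

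Estimated counts summed to 12.0 to 14.5 M in the 4 GV libraries used and to 12.9 to 23.6 M in MIX. GV replicate 3 had the lowest total, 6.40 M, and was left out of the fits because the study drops a GV library with few reads, without naming it. Of the 11 cumulus and granulosa markers measured, 7 were under 1 TPM in each of the 14 libraries. Of the others, *KITLG* had 35.7 to 46.6 TPM in GV and 30.4 to 55.0 TPM in MIX. *FST* had 11.5 to 19.3 TPM in GV and 15.8 to 25.5 TPM in MIX, and *STAR* and *TNFAIP6* reached 1.22 and 2.62 TPM. The 11 markers summed to 54.7 to 62.7 TPM in GV and 46.7 to 79.9 TPM in MIX. As log2 fold changes with the TMM factors described below, *FST* and *KITLG* rose between GV and MIX by 1.54 and 1.04. Their mean TPM were 15.4 and 40.2 in GV and 21.8 and 41.1 in MIX. The 7 measured markers of theca, stroma, blood and endothelium summed to 10.52 to 16.1 TPM in GV and 8.50 to 21.1 TPM in MIX, with 4 of 7 under 1 TPM throughout. Of these, *PECAM1* rose by 1.72 and *COL1A2* fell by 0.73, also as log2 fold changes with TMM factors. The 9 oocyte markers summed to 15290 to 19161 TPM in GV and to 3596 to 5992 TPM in MIX, and 6 of 9 fell. What part these moves have in the results below was not tested.

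Levels below are in CPM, counts per M on library sizes scaled by TMM factors, where libraries are compared, and in TPM, which corrects for transcript length, where genes are compared. TMM factors assume that most genes keep their level. The GV libraries had factors of 1.35 to 1.73 and the MIX libraries factors of 0.794 to 0.922. Over the 13220 genes the log2 fold change of MIX over GV then had a median of -0.16, and a median of -1.06 on library sizes alone. A gene is said to rise or fall where limma-voom gave an FDR under 0.01, and a DEG also had an absolute log2 fold change over 2.

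Between GV and MIX, the replication genes moved in both directions. Of 48 members, 23 rose and 18 fell, while 30.3% of all genes tested rose and 37.2% fell. On library sizes the split was 18 risen and 25 fallen, against 12.1% and 60.5% of all genes. The median log2 fold change of the members was 0.31 with TMM factors and -0.58 on library sizes. On CPM scaled by TMM factors, all 23 members that rose had each MIX library above each GV library. On the same CPM, 14 members had each MIX library below each GV library. The separation was not counted on library sizes. Separations given below are on these CPM, apart from those of isoform shares. In all genes, separation on these CPM was found in 24.3% upwards and 29.3% downwards. Among DEGs, 7 members were higher and 7 lower, against 4.27% and 16.7% of all genes. On library sizes 0 members were DEGs upwards and 13 downwards, against 0.348% and 28.6% of all genes. The shares over all genes were not matched for level. The median of the mean TPM in GV was 48.1 for the members and 9.54 for all genes tested.

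**Figure D1:**
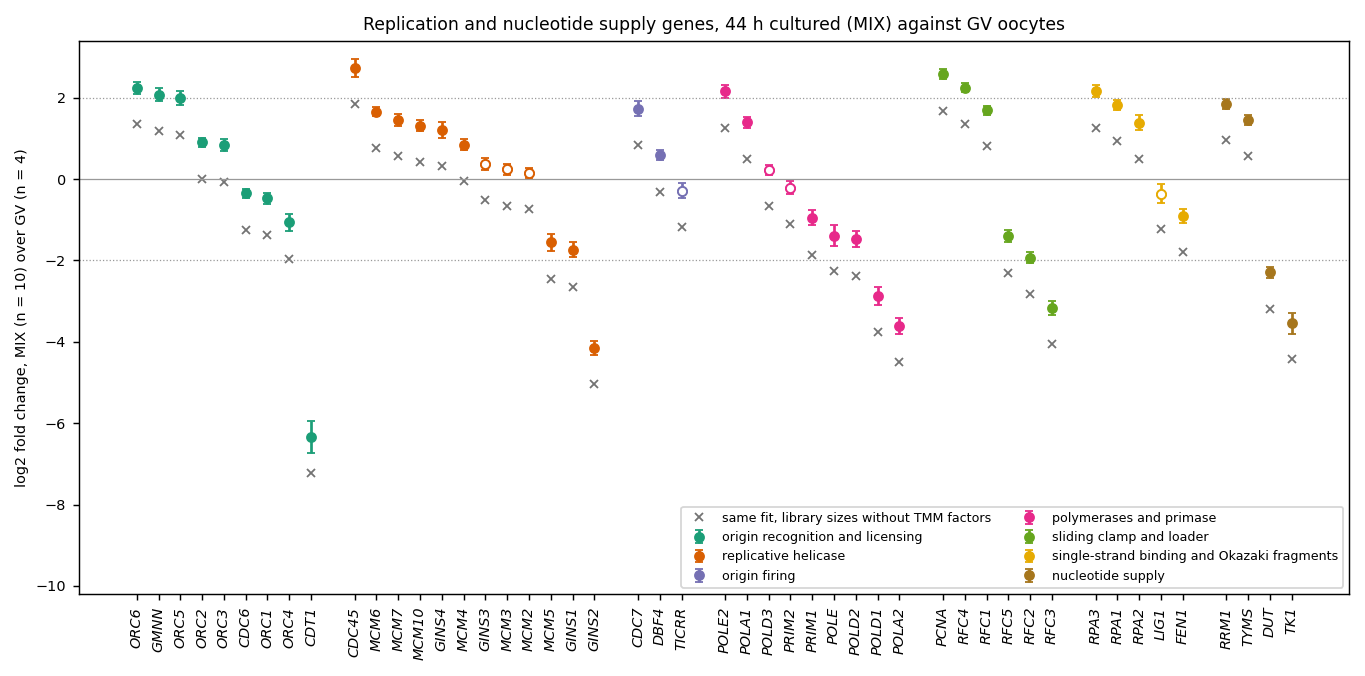
Log2 fold change of MIX over GV for 48 replication and nucleotide supply genes, ordered by group and size. Filled points passed an FDR under 0.01, open points did not, bars are the standard error, and grey crosses are the values on library sizes. The values reach from 2.73 for *CDC45* to -6.35 for *CDT1*, and 6 of the 7 groups hold members that rose and members that fell.

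The 7 members that did not pass the test were *MCM2*, *MCM3*, *GINS3*, *TICRR*, *PRIM2*, *POLD3* and *LIG1*. Their log2 fold changes lay between -0.36 and 0.37. On library sizes, all 7 had negative values of -0.51 to -1.24 with an FDR under 0.01. The members that rose with TMM factors but had a value near or below 0 on library sizes were *ORC2*, *ORC3*, *MCM4* and *DBF4*, with values there of 0.0070, -0.06, -0.04 and -0.31. *GINS4* stayed positive at 0.32 but did not pass there.

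*PCNA*, the sliding clamp (chromosome 17, 14137746 to 14142584), was by far the most abundant member. It ranked 14 to 18 among all genes by TPM in GV and 5 to 8 in MIX. Its CPM were 6311, 4542, 4875 and 3519 in GV, and 22165 to 32360 with a median of 28862 in MIX. The lowest MIX library thus had more than 3 times the CPM of the highest GV library. The log2 fold change was 2.58 (SE 0.12, FDR 2.69e-13), and it was 1.68 on library sizes.

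The share of *PCNA* in all estimated counts, which uses no scaling factor, was 0.860, 0.715, 0.742 and 0.585% in the GV libraries, with 95% Wilson intervals from 0.581 to 0.590% for the lowest and 0.855 to 0.865% for the highest. In MIX the share was 2.10 to 2.62%. Means were 0.726% ± 0.113 (SD, n = 4) and 2.41% ± 0.157 (SD, n = 10), and the two-sided exact permutation p was 0.0020, the smallest that the splits of these libraries allow. The splits treat the libraries as independent and do not keep those of a shared collection together. The other 47 members together took 0.760% ± 0.028 (SD, n = 4) of the counts in GV and 0.735% ± 0.021 (SD, n = 10) in MIX. In GV replicate 3, left out of the fits, *PCNA* took 0.508%. The 10 genes with most counts in a library took 7.07 to 7.48% of its counts in GV and 12.9 to 14.4% in MIX. *PCNA* was itself among these genes in each MIX library and in some GV libraries. The part of the other genes in the share of *PCNA* was not tested.

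The clamp loader RFC has 1 large and 4 small subunits, and these split. *RFC4* and *RFC1* rose, and *RFC2*, *RFC3* and *RFC5* fell. *RFC4* had 172, 116, 118 and 121 CPM in GV and 496 to 669 CPM (median 629) in MIX, with a log2 fold change of 2.24 (SE 0.11, FDR 4.87e-13). *RFC3* had 501, 274, 311 and 240.4 CPM in GV and 25.7 to 51.0 CPM (median 34.0) in MIX. The groups did not overlap for either gene, and *RFC3* fell by 3.16 on the log2 scale (SE 0.17, FDR 1.22e-12). Per length, *RFC3* was the most abundant loader subunit in 4 of 4 GV libraries and *RFC4* in 10 of 10 MIX libraries. The ratio of *RFC4* to *RFC3* in TPM was 0.269 to 0.395 in GV and 7.62 to 20.4 in MIX. *RFC1*, *RFC2* and *RFC5* had log2 fold changes of 1.69, -1.93 and -1.40.

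**Figure D2:**
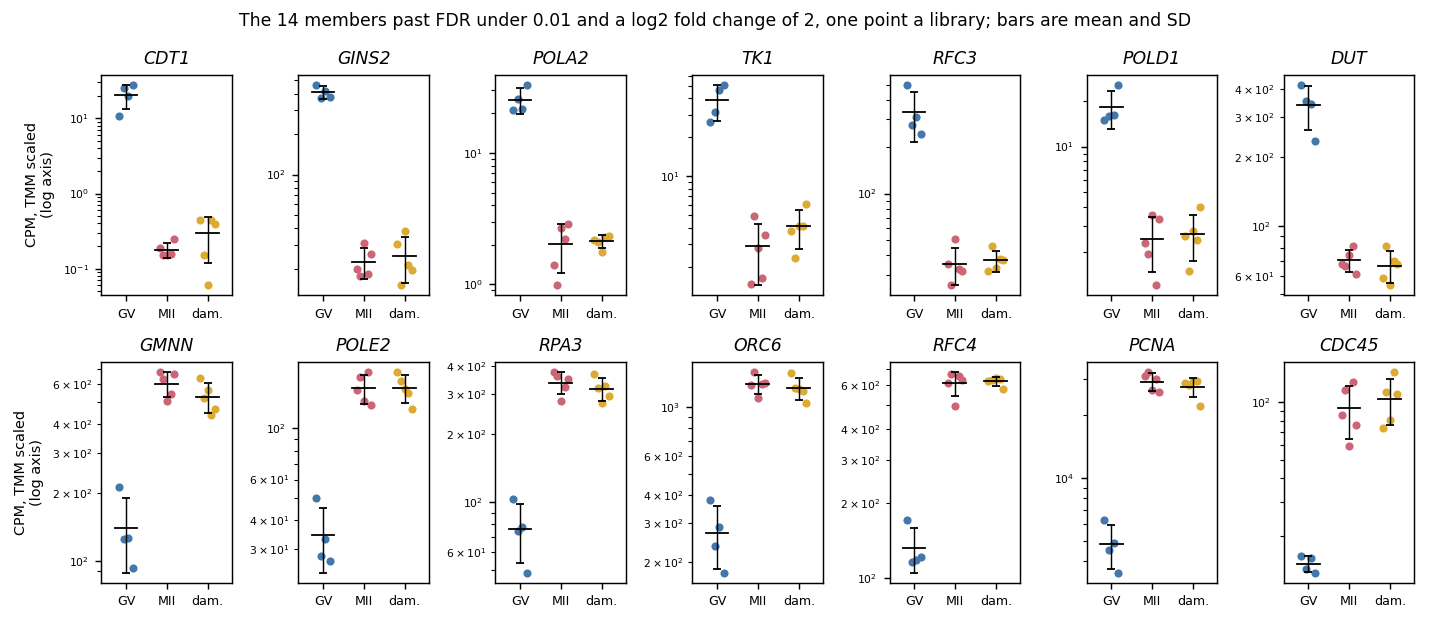
CPM on a log axis of the 14 DEG members in 4 GV, 5 MII and 5 ‘damaged’ (dam.) libraries, 1 point per library, with mean and SD as bars. In each panel the GV libraries lie apart from the MII and ‘damaged’ libraries, which overlap with each other.

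In licensing, the inhibitor and the factor it binds went opposite ways. *GMNN* encodes geminin, which binds CDT1 and blocks loading of the helicase. Its CPM were 211, 126, 127 and 93.4 in GV and 439 to 677 (median 557) in MIX, a rise of 2.07 (SE 0.16, FDR 3.33e-10). *CDT1* (chromosome 6, 893377 to 897706) had 10.7, 24.97, 19.9 and 27.4 CPM in GV and 0.060 to 0.451 CPM in MIX. In every MIX library it was close to undetected.

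Behind these CPM stood 210 to 660 counts of *CDT1* per GV library and 0.99 to 6.89 counts per MIX library. Summed over libraries, 1771 counts in GV faced 35 in MIX, and the scaled ratio was 87.0 (95% exact interval 62.3 to 125, for counting error only). The fitted log2 fold change of -6.35 (SE 0.39, FDR 8.19e-12) was the lowest among the members. The TPM ratio of *GMNN* to *CDT1* was 5.60 to 32.4 in GV and 1627 to 15583 in MIX, where the few *CDT1* counts set its precision.

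Of the ORC subunits, *ORC6*, *ORC5*, *ORC2* and *ORC3* rose with TMM factors, of which *ORC2* was near 0 and *ORC3* below it on library sizes. *ORC1* and *ORC4*, and *CDC6*, the loading partner of CDT1, fell. *ORC6* was the most abundant subunit per length in 4 of 4 GV and 10 of 10 MIX libraries. It had 380.3, 236, 288 and 179 CPM in GV and 1041 to 1436 CPM (median 1236) in MIX. The rise of 2.24 (SE 0.14, FDR 1.37e-11) remained on library sizes at 1.35. *ORC5* followed with a log2 fold change of 1.99. The log2 fold changes of *ORC1*, *CDC6* and *ORC4* were -0.47, -0.35 and -1.07, and libraries of GV and MIX overlapped for all 3. The highest ORC subunit exceeded the lowest by 16.5 ± 4.83 times in GV (SD, n = 4) and by 82.4 ± 13.3 times in MIX (SD, n = 10).

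In the replicative helicase, 6 of 12 genes rose and 3 fell with TMM factors (30.3% and 37.2% of all genes), whereas on library sizes 4 rose and 6 fell (12.1% and 60.5%). *CDC45* (chromosome 14, 51133111 to 51158604), which joins MCM2-7 and GINS in the active helicase, had 15.9, 13.5, 15.4 and 12.9 CPM in GV. In MIX it had 58.7 to 144 CPM with a median of 98.1. Its log2 fold change of 2.73 (SE 0.21, FDR 2.88e-10) was the highest among the members. *GINS2* (chromosome 6, 3218655 to 3252740), a subunit of the 4-protein GINS ring, had 466, 368, 421 and 375 CPM in GV and 15.0 to 38.4 CPM (median 20.5) in MIX.

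*GINS2* thus fell by 4.15 (SE 0.17, FDR 3.71e-14), with no overlap. In GV it was the most abundant helicase member, at 647 TPM ± 47.9 (SD, n = 4), and in MIX it was at 18.8 TPM ± 6.24 (SD, n = 10). *GINS1* fell by 1.74, *GINS4* rose by 1.21 with TMM factors and *GINS3* had 0.37 without passing. *GINS4* was the highest of the 4 subunits in 10 of 10 MIX libraries. GINS was the one complex of 4 or more subunits whose range narrowed, from 74.7 ± 9.57 times in GV (SD, n = 4) to 27.8 ± 5.64 times in MIX (SD, n = 10).

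The ring of MCM2-7, the motor of the helicase, needs 1 copy of each of its 6 proteins. Log2 fold changes of its genes ranged from 1.66 for *MCM6* to -1.56 for *MCM5*. *MCM6*, *MCM7* and *MCM4* rose with TMM factors (*MCM4* was slightly negative on library sizes), *MCM5* fell, and *MCM2* and *MCM3* did not pass. *MCM6* was highest in each GV and MIX library per length. *MCM3* was lowest in 4 of 4 GV and 9 of 10 MIX libraries. *MCM10*, which helps to activate the assembled helicase, rose by 1.31.

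**Figure D3:**
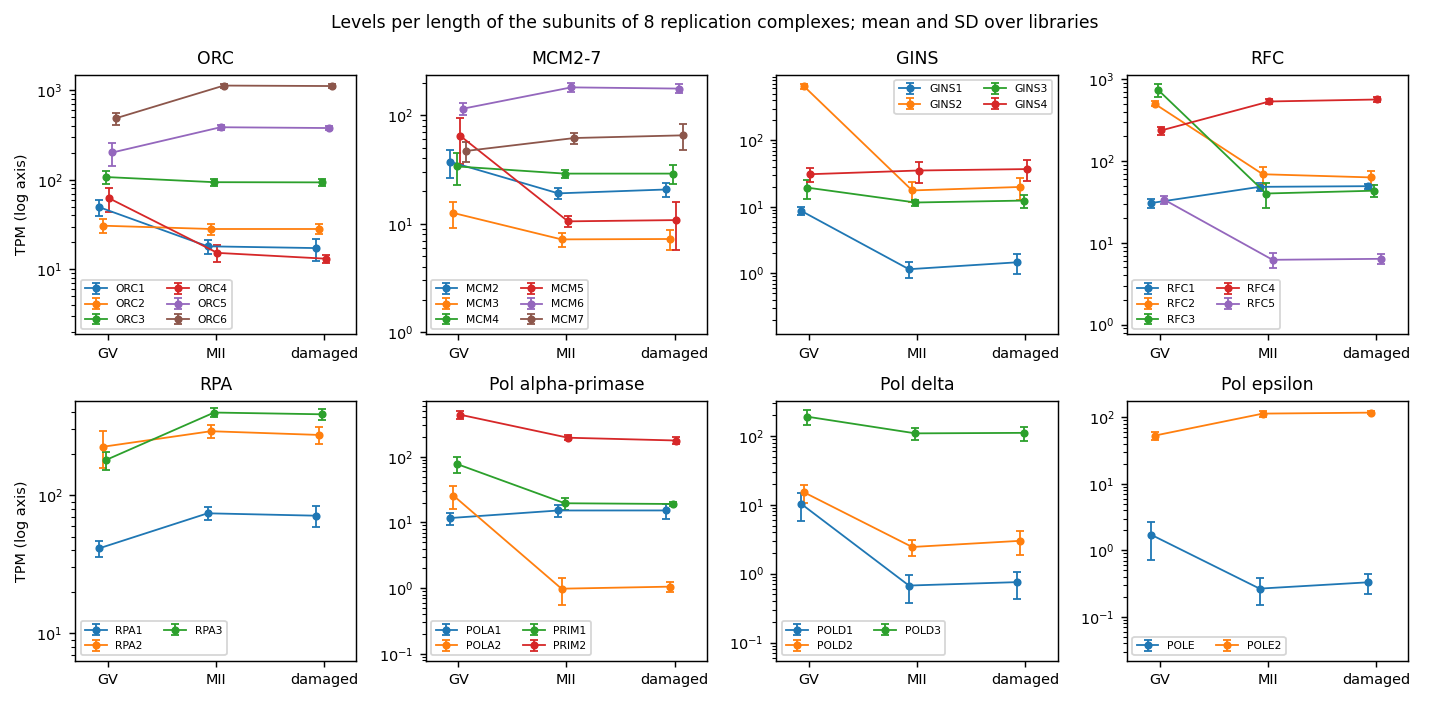
Mean TPM (log axis) with SD of the member subunits of 8 replication complexes in GV (n = 4), MII (n = 5) and ‘damaged’ (n = 5) oocytes. The subunit with the highest mean differs between GV and MII in the GINS, RFC and RPA panels, and the order of the subunits is the same in MII and ‘damaged’ in all 8. TPM carries no TMM factor, so lines show the order of genes within a group rather than their change.

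Of the 3 genes for origin firing, *CDC7* and its activator *DBF4*, which form the kinase that fires licensed origins, rose with TMM factors. *DBF4* was below 0 on library sizes. *CDC7* had 15.7, 17.95, 19.2 and 20.0 CPM in GV and 37.1 to 85.6 CPM (median 60.0) in MIX, a rise of 1.73 (SE 0.19, FDR 3.54e-08). *DBF4* had the highest mean TPM of the 3 over the 14 libraries, though in MII its mean was 26.5 TPM against 27.7 TPM for *CDC7*. *DBF4* had 33.3 to 41.4 CPM in GV and 47.0 to 66.0 CPM in MIX. The groups did not overlap in these CPM for either gene, whereas in TPM, which carries no TMM factor, they overlapped for both. *TICRR*, a loading factor for CDC45, had a log2 fold change of -0.28 and did not pass.

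Of 9 genes of the polymerases and primase, 2 rose and 5 fell, while scaling by library sizes gave 2 and 7. Their log2 fold changes had -0.95 as the median with TMM factors. The shares over all genes were 30.3% risen and 37.2% fallen with TMM factors and 12.1% and 60.5% on library sizes. In polymerases alpha and epsilon a catalytic and an accessory subunit moved in opposite directions. Of polymerase alpha, which starts each new strand with the primase, the catalytic subunit *POLA1* rose by 1.39 and the accessory subunit *POLA2* fell by 3.61 (SE 0.20, FDR 1.33e-12). *POLA2* had 21.1, 25.9, 21.5 and 33.2 CPM in GV and 0.982 to 2.90 CPM in MIX, from 12.9 to 46.4 counts per MIX library. All MIX libraries were below all GV libraries.

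Of polymerase epsilon, which copies the leading strand, the roles were the reverse. The catalytic subunit *POLE* fell by 1.39 and the accessory subunit *POLE2* rose by 2.15 (SE 0.15, FDR 6.31e-11). *POLE* was low, at 3.27 to 8.49 CPM in GV and 1.32 to 2.98 CPM in MIX, from 18.3 to 43.7 counts per MIX library. *POLE2* had 50.05, 28.03, 33.0 and 26.6 CPM in GV and 121 to 176 CPM (median 147) in MIX, without overlap. Of polymerase delta, which copies the lagging strand, the catalytic subunit *POLD1* fell by 2.87 (SE 0.23, FDR 3.27e-10). *POLD1* had 15.0, 15.8, 16.1 and 25.7 CPM in GV and 1.21 to 3.98 CPM in MIX. *POLD2* fell by 1.47, and *POLD3* had a log2 fold change of 0.23 that did not pass.

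Among the member subunits, 3 of polymerase delta and 2 of polymerase epsilon, the catalytic subunit was the least abundant. Other subunits of these polymerases are not among the members and were not ranked. *POLD3* was the highest and *POLD1* the lowest of these delta subunits per length in each of the 14 libraries, and *POLE2* exceeded *POLE* in each. In polymerase alpha the TPM ratio of catalytic *POLA1* to *POLA2* was 0.378 to 0.586 in GV and 9.61 to 34.1 in MIX. Mean TPM in GV was 190 ± 44.0 for *POLD3* and 10.4 ± 4.53 for *POLD1* (SD, n = 4). In MIX it was 110 ± 23.0 and 0.71 ± 0.29 (SD, n = 10). *PRIM2*, the large primase subunit and the highest member of this group, had 431, 307, 361 and 207 CPM in GV and 182 to 344 CPM (median 278) in MIX. These ranges overlapped widely, and *PRIM2* did not pass (log2 fold change -0.21, SE 0.16), whereas the catalytic primase subunit *PRIM1* fell by 0.95.

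RPA, the trimer that coats single-stranded DNA, was the only complex of the 8 plotted by subunit whose subunits all rose. *RPA1*, *RPA2* and *RPA3* had log2 fold changes of 1.83, 1.39 and 2.16, and of 0.94, 0.49 and 1.26 on library sizes. *RPA3*, the smallest subunit, had 103, 74.7, 77.3 and 48.7 CPM in GV and 274 to 378 CPM (median 325) in MIX. The FDR of *RPA3* was 3.76e-11 (SE 0.15). The highest subunit exceeded the lowest by 5.70 ± 2.61 times in GV (SD, n = 4) and by 5.51 ± 1.01 times in MIX (SD, n = 10). *FEN1*, which trims the ends of Okazaki fragments, had 7.01, 12.4, 9.34 and 11.9 CPM in GV and 4.16 to 6.92 CPM in MIX. It fell by 0.91 (SE 0.18, FDR 9.01e-05), its highest MIX library being only just below the lowest GV library. *LIG1*, which seals these fragments, did not pass at -0.36.

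The nucleotide supply genes also divided. *RRM1*, the large subunit of the ribonucleotide reductase that makes deoxynucleotides, had 62.5, 66.8, 55.3 and 57.2 CPM in GV and 176 to 255 CPM (median 219.9) in MIX. It rose by 1.84 (SE 0.12, FDR 2.34e-11). *TYMS*, which makes dTMP and was on average the most abundant gene of this group, had 366, 444, 382 and 407 CPM in GV and 899 to 1451 CPM (median 1035) in MIX, a rise of 1.45. Both genes were higher in each MIX library.

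*TK1*, which recovers thymidine, had 26.1, 31.5, 46.7 and 51.2 CPM in GV and 1.46 to 6.11 CPM (median 3.67) in MIX. It fell by 3.54 (SE 0.26, FDR 8.74e-11). *DUT*, which destroys dUTP and so keeps uracil out of DNA, had 419, 355, 344 and 236 CPM in GV and 54.5 to 81.7 CPM (median 67.5) in MIX, a fall of 2.29 (SE 0.14, FDR 4.83e-12). Per length, *DUT* was the second most abundant member in GV after *PCNA*, at 1452 TPM ± 165 (SD, n = 4). The TPM ratio of *TYMS* to *DUT* was 0.312 to 0.614 in GV and 4.13 to 9.51 in MIX.

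Over the 48 members, the coefficient of variation of the CPM had a median of 21.0% in GV, 13.9% in MII and 15.4% in ‘damaged’ oocytes, against 22.8, 22.1 and 22.9% over all genes tested. The values over all genes were not matched to the members for level. In GV the coefficient was lowest for *RPA1* (2.88%) and highest for *RPA2* (47.0%), both subunits of RPA. Of the 23 members that rose, GV replicate 1 had the highest GV value for 11 and GV replicate 5 the lowest for 12. For *ORC6*, *GMNN*, *PCNA* and *RPA3*, GV replicate 5 was the lowest and GV replicate 1 the highest, with *PCNA* at 3519 and 6311 CPM. Without GV replicate 5, *GMNN* and *RPA3* had log2 fold changes of 1.90 and 1.96, so that 5 members were DEGs upwards. With genes filtered at 10 CPM, 2 members (*CDC45* and *PCNA*) were, against 2.43% of the 7462 genes then tested. All 14 DEG members kept an FDR under 0.01 and their direction in every alternative run.

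The comparison of MII and ‘damaged’ oocytes asks whether replication genes differ between cultured oocytes with and without a polar body. None of the 48 members passed an FDR under 0.01 (limma-voom), and none of all genes tested did (0% called). The same count of 0 came from edgeR and DESeq2. At an unadjusted p under 0.05 there were 0 members, against 2.76% of all genes. The largest differences were those of *TK1* and *CDT1*, 2 of the members with few counts in these libraries. *TK1* was at 2.87 CPM ± 1.44 in MII and 4.09 CPM ± 1.35 in ‘damaged’ (SD, n = 5 each), a log2 difference of -0.60 with a 95% confidence interval of -1.20 to 0.0016. For *CDT1* the difference was -0.38 (-1.44 to 0.68).

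The intervals give the sizes that these 10 libraries leave room for, provided that the names of the transcript files give the right groups. For 46 of 48 members the 95% interval lay within a 2-fold difference either way, and for 35 within 1.5-fold. For 43 members the estimate itself was within 0.25 on the log2 scale. *PCNA* was at 29088 CPM ± 2828 in MII and 27401 CPM ± 2979 in ‘damaged’ (SD, n = 5 each), and the log2 difference was 0.09 (-0.20 to 0.37). *GMNN* was at 605 CPM ± 76.3 and 527 CPM ± 79.9 (SD, n = 5 each), a difference of 0.20 (-0.16 to 0.57).

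**Figure D4:**
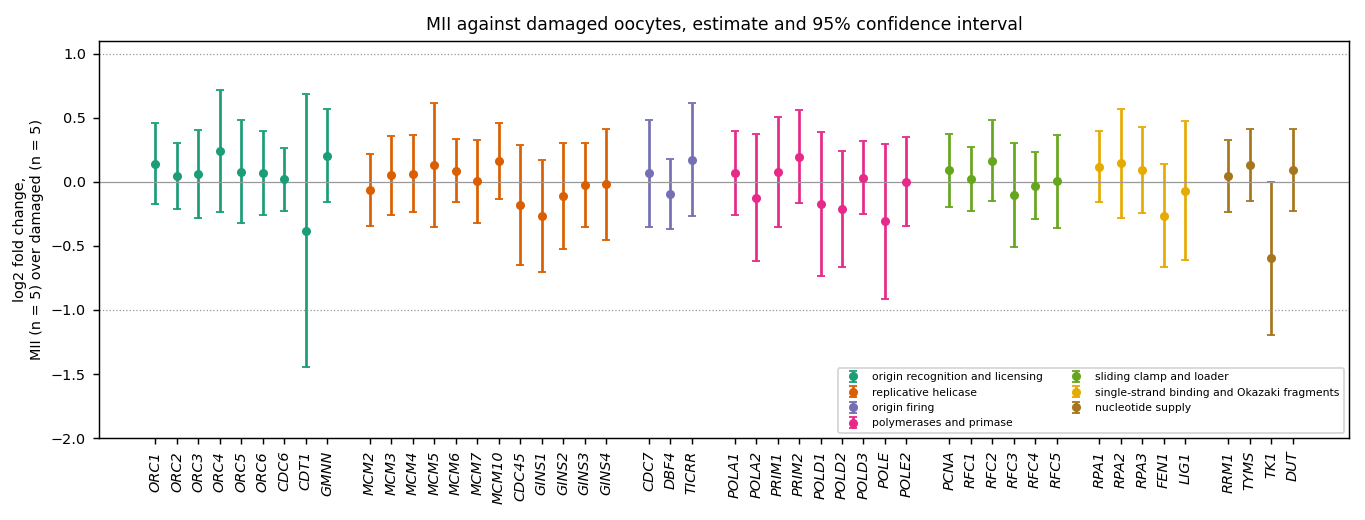
Log2 fold change of MII over ‘damaged’ oocytes with 95% confidence interval for 48 members in their groups, n = 5 libraries each, with dotted lines at a 2-fold difference. The interval of each member includes 0, and those of *CDT1* and *TK1* alone pass the lower line.

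Against GV, the 2 cultured groups were also fitted separately, with the same GV libraries in both comparisons. In MII, 23 members were higher and 16 lower (28.2% and 34.2% of all genes). In ‘damaged’ oocytes, 23 were higher and 17 lower (27.9% and 33.4% of all genes). In both comparisons 23 members were called higher and 16 lower. On library sizes the counts were 16 higher and 24 lower in MII (10.9% and 57.5% of all genes) and 15 and 24 in ‘damaged’ (11.2% and 56% of all genes). DEGs numbered 8 higher and 7 lower in MII (4.51% and 17% of all genes), and 6 higher and 8 lower in ‘damaged’ (4.08% and 16.4%). On library sizes they numbered 0 and 13 in MII (0.356% and 29.4% of all genes) and 0 and 14 in ‘damaged’ (0.333% and 27.8%). With the 10 CPM filter 2 were higher in each, against 2.63% of all genes in MII and 2.31% in ‘damaged’. The members that made these counts differ lay at the threshold, such as *GMNN* with 2.18 and 1.97 and *ORC5* with 2.03 and 1.95. *TK1* had -3.84 in MII and -3.24 in ‘damaged’, and *CDC45* had 2.64 and 2.82.

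Transcripts of 1 gene can also change in proportion. Of the members, 32 had 2 or more transcripts that entered the isoform test, and 14 of them (43.8%) had at least 1 transcript with an FDR under 0.01 (limma diffSplice) and a change in share over 0.1 between GV and MIX. Over all genes this share was 43%, close to that of the members. Of 89 transcripts of members 24 were called, against 30% of all transcripts tested. The genes described next were chosen after their values were seen, and transcripts are named by their length.

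*ORC1* had 2 transcripts, of 2816 and 3348 bases. The shorter took 14.4, 10.3, 14.3 and 10.9% of the TPM of the gene in GV and 44.1 to 59.0% in MIX (51.0% ± 4.56, SD, n = 10). In GV the longer form dominated, and in MIX both had similar shares, while the level of *ORC1* fell by 0.47. For *MCM10* the 2761-base form rose from 60.6% ± 8.04 (SD, n = 4) to 91.9% ± 1.61 (SD, n = 10) against a 6634-base form (FDR 1.86e-12). For *RRM1* a 4128-base form had 40.8, 4.99, 43.9 and 18.9% in GV and 69.2 to 90.4% in MIX, in place of a 3883-base form that fell from 61.6% to 17.8%.

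*POLD3*, whose total did not pass the test, had its 3553-base form at 64.0 to 72.8% in GV and 44.8 to 56.5% in MIX. The groups did not overlap for this form. For *PCNA* the main form of 2159 bases had 95.5, 59.7, 80.4 and 53.4% in GV and 92.6 to 99.4% in MIX. GV replicates 2 and 5 were low here, and GV replicate 1 lay within the range of MIX. The same 2 libraries stood apart in *RPA1*, where a 2611-base form had 9.72, 68.0, 16.4 and 58.7% in GV and at most 0.609% in MIX. In *MCM5* a form of 51.8 to 73.1% in GV was at most 2.33e-05% in 9 of 10 MIX libraries and at 34.5% in ‘damaged’ replicate 1. *POLA2* went from 43.8 to 81.1% for its 2540-base form in GV to 83.1 to 100% in MIX, where the other form had at most 6.25 counts per library.

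**Figure D5:**
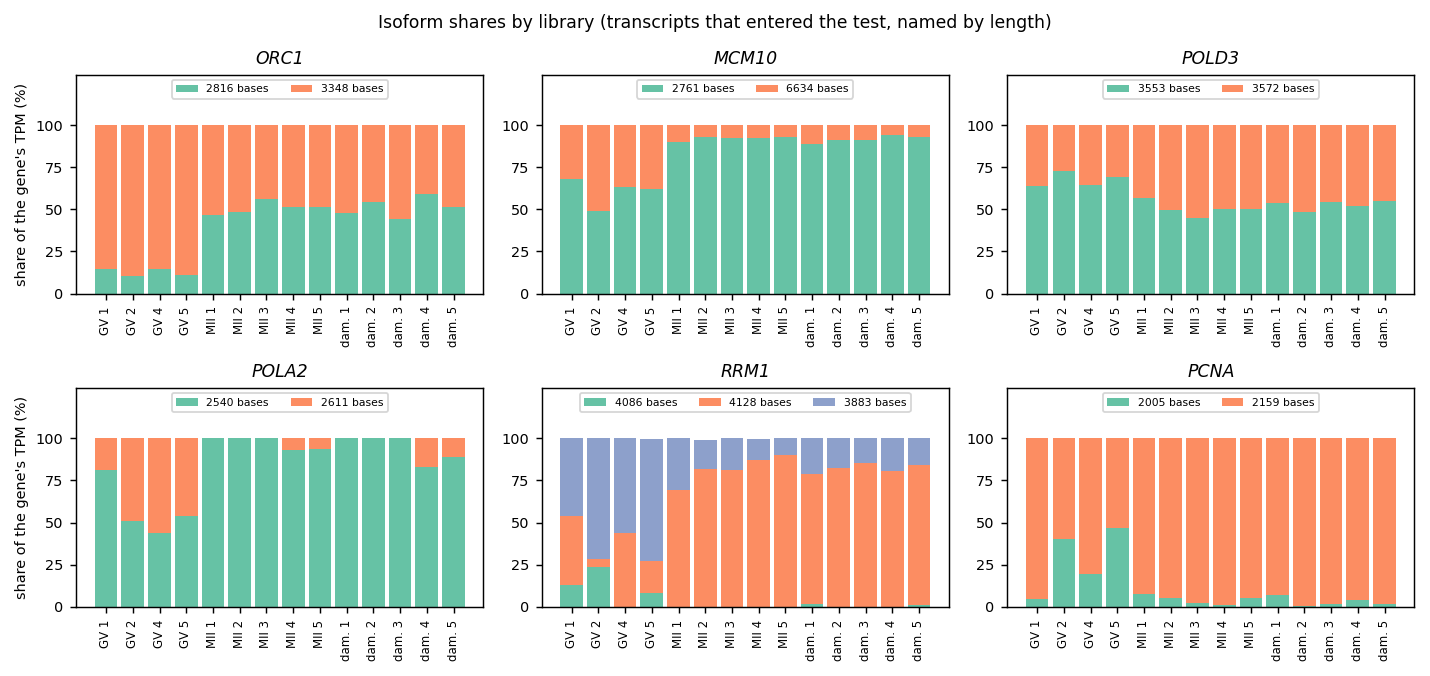
Stacked shares of the TPM of 6 members by transcript in 4 GV, 5 MII and 5 ‘damaged’ (dam.) libraries, with transcripts coloured by length. The proportions of *ORC1*, *MCM10*, *POLD3* and *RRM1* differ between GV and the cultured libraries in each library, and *PCNA* varies among the GV libraries from 53.4 to 95.5% for its main form.

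Other genes of the same processes, in 3 lists, also held genes that rose and genes that fell. Of 28 other replication fork genes 13 rose and 11 fell, of 24 other nucleotide synthesis genes 11 rose and 10 fell, and of 24 G1/S regulators 8 rose and 10 fell, beside 30.3% and 37.2% of all genes tested. On library sizes these counts were 5 and 15, 7 and 13, and 2 and 14, beside 12.1% and 60.5% of all genes. The largest changes without overlap in the first list were a rise of *MTBP*, a partner of TICRR (9.24 ± 3.87 to 89.99 ± 20.8 CPM), and a fall of *CHTF18*, part of an alternative clamp loader (5.44 ± 2.77 to 0.097 ± 0.10 CPM). In nucleotide synthesis, *PPAT*, which opens the purine pathway, rose by 2.19 and *ADSL*, a later purine enzyme, fell by 2.47. Among G1/S regulators, *SKP2*, which marks proteins such as CDT1 for destruction, rose by 2.296 and *E2F2*, a transcription factor of S phase genes, fell by 3.03 (means ± SD over 4 GV and 10 MIX libraries).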

How the data were processed

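The libraries were made by the authors with a SMART-Seq HT kit from polyA RNA and sequenced as single-end reads of 75 bases. As the study describes, the authors trimmed reads with AfterQC and estimated counts per transcript with Kallisto (version 0.43 per the submitters' processing notes) from Ensembl cDNA of Sscrofa11.1. The deposited transcript files hold estimated counts, which are not normalised, and TPM, which Kallisto scales to 1 total per library. The authors summed these to estimated counts per gene with tximport (lengthScaledTPM). Kallisto divides reads among transcripts of like sequence, and the reads carry no strand, so overlapping genes cannot be told apart.

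Of 15 columns of the gene table, 8 were used and 7 with the total of another library were not. Transcripts were assigned to genes by matching TPM sums to these 8 columns, which placed 18920 of 18954 genes with a count. Gene counts of 15 libraries were then recomputed. In the 8 columns used, they differed from deposited counts of 10 or more by at most 0.000555%. Transcripts were chosen to match these same columns, so this closeness is no separate check. The libraries of the other 7 columns were not compared. On simulated data, 99.9% of 6029 genes got exactly their transcripts.

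Members, groups and the other gene lists were chosen with earlier results of these data known. Genes were filtered by filterByExpr of edgeR 4.0.16 (minimum count 10, minimum total 15) and compared by linear models on voom weights (limma 3.58.1, moderated by eBayes, R 4.3.3) with TMM factors, over 4 GV and 10 MIX libraries or in a fit of 3 groups, with Benjamini-Hochberg adjustment over all genes. The study names no scaling factor, so library sizes are given beside. Voom used non-integer counts, and edgeR and DESeq2 1.42.0 used rounded counts as alternatives. Isoforms were tested with diffSplice, in place of DEXSeq, whose model was fitted in DESeq2 as an alternative. On simulated libraries, limma-voom recovered 200 of 200 genes of a log2 fold change of 2 between MIX and GV, and 150 of 200 of 1. Between MII and ‘damaged’ it recovered 199 and 135 of 200. Only the 200 genes changed in these simulations, as many up as down. The simulations thus lack the broad shift of genes between GV and MIX and do not address the choice of scaling.

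Genes named with values per library were *PCNA*, each DEG, and in each group the gene of highest mean TPM and the largest rise and fall without overlap between GV and MIX. Between replicates, chi-square values per gene, set against Poisson sampling, were 13.1 to 89.3 over 26 pairs. Intervals of shares cover counting error only. Promoter motifs were planned and were not analysed here. Python 3.11.15, scipy 1.17.1 and matplotlib 3.10.9 were used for matching, intervals and figures.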

Additional observations from a re-analysis of the deposited data

Results flagged for a closer look

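In 66 groups of 4 or 5 libraries (the 20 genes named with values per library, the *PCNA* share and the library totals, in GV, MII and ‘damaged’), 4 held a library far from the others by the gap between it and its nearest neighbour as a share of the range. Chance alone gives about 1 in 20 groups. *POLD1* was high in GV replicate 5, at 25.7 CPM against 15.0 to 16.1 in the other GV libraries (gap 0.898 of the range). *RFC4* was high in GV replicate 1, at 172 CPM against 116 to 121 (0.905). *PCNA* was low in ‘damaged’ replicate 5, at 22165 CPM against 27857 to 29260 (0.802). *TYMS* was high in ‘damaged’ replicate 3, at 1451 CPM against 899 to 1015 (0.789). Each of these libraries lay on the same side of the other stage as the rest of its group.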

How the results depend on the processing

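Library sizes in place of TMM factors moved the calls most. On library sizes, DEG members between MIX and GV were 0 higher and 13 lower, in MII against GV 0 and 13, and in ‘damaged’ against GV 0 and 14, with 15 members higher in the last. DEGs over all genes also moved there, to 0.348% higher and 28.6% lower between MIX and GV. Values changed sign there for *ORC3* (-0.062), *MCM2* (-0.74), *MCM3* (-0.65), *MCM4* (-0.045), *GINS3* (-0.51), *DBF4* (-0.31) and *POLD3* (-0.67). A filter of 10 CPM left 2 DEG members higher in each of these 3 comparisons. The causes were not tested.

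Leaving out 1 library at a time gave 23 members higher throughout, and 16 to 18 lower in MIX, 16 to 17 in MII and 16 to 17 in ‘damaged’ against GV. DEG members numbered 5 to 8 higher and 7 to 7 lower in MIX, 7 to 8 and 7 to 8 in MII, and 5 to 8 and 7 to 8 in ‘damaged’. Members with a called isoform were 13 to 16, against 18 by the DEXSeq model and 18 with all 5 GV libraries. All 5 GV libraries gave 23 members higher and 17 lower between MIX and GV. Between MII and ‘damaged’ the count was 0 in every alternative run. Over 20 alternatives (the 2 on filters not among them), 34 of 48 members kept direction and side of the threshold between MIX and GV, and 44 did in the alternatives other than library sizes.

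Replicate numbers were not taken as pairs. The study made 5 collections with oocytes of each group, but the labels do not tie a number to a collection. Same-numbered libraries of GV and a cultured group correlated at -0.10 to 0.32, with 2 of 8 over 0.1, and those of MII and ‘damaged’ at 0.019 to 0.20, with 1 of 5 over 0.1. Libraries of other numbers correlated at -0.28 to 0.12 (2 of 32 over 0.1) and -0.17 to 0.28 (1 of 20). The medians of same-numbered pairs were 0.060 and 0.072, and those of the other pairs -0.014 and -0.0059. With a replicate block, 23 members were higher and 18 lower between MIX and GV, 7 and 7 were DEGs, and 15 had a called isoform. The block moved no call of a member between MIX and GV, and 1 member had an unadjusted p under 0.05 between MII and ‘damaged’. Precision is limited by 4 GV libraries and, for *CDT1*, by few counts.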
